A study of Mus musculus with 57 samples.

Results

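The comparison described here set ribosome pull-downs from mouse kidneys that carry a tagged ribosomal protein allele but no Cre recombinase against the same pull-downs from wild-type kidneys, 24 h after ischemia-reperfusion injury (IRI). It used 8 of the 57 arrays of the series, 4 from L10a mice and 4 from wild-type mice, chosen by their titles, and all 19067 genes that could be tested. The question was which messages the tag allele adds to the pull-down when nothing has switched it on. The L10a mice carried Rosa26-CAGGS-eGFPL10a, a fusion of enhanced green fluorescent protein to ribosomal protein L10a at the Rosa26 locus under the broadly active CAGGS promoter. Their labels give them both as homozygous and as heterozygous for this allele. The wild-type mice are named C57BL/6 in their titles, whereas the strain label of both groups reads mixed C57BL/6 and 129, so strain and allele cannot be told apart if the 2 colonies differed. All mice were male and 8 weeks old, and ischemia was made by 28 min of clamping on the vessels of both kidneys. A second pair of groups, 2 L10a and 2 wild-type arrays, came from sham surgery without clamping and repeats the contrast in other mice. The titles call the arrays biological replicates without saying whether each came from its own animal, so p-values measure the spread between these samples. The labels name podocytes and some collecting duct cells as the source of the L10a background.

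Translating ribosome affinity purification (TRAP) captures messages through antibodies to the tag on the ribosome. In this allele a stop sequence flanked by loxP sites normally keeps the tag silent until Cre removes it, so tagged ribosomes in Cre-free kidneys would come from cells in which the allele is active on its own. Podocytes wrap the glomerular capillaries with interlocking foot processes and hold the filtration barrier, and principal cells of the collecting duct take up water and sodium under vasopressin and aldosterone. A wild-type pull-down has no tag and holds only what adheres to beads and antibody.

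The deposited values were normalized intensities, analysed on the log2 scale. The medians of the pull-down arrays lay between 105.8 and 128.4, so a value tells the place of a message in its own pull-down and not an amount of RNA. In such bulk samples, fewer cells of a type and less RNA per cell cannot be told apart. Within the L10a IRI group the arrays correlated with each other at r between 0.992 and 0.998 over all genes, and within the wild-type IRI group at 0.967 to 0.993. Between the groups r was 0.922 to 0.944. Wild-type replicate 1 stood farthest from its own group, with the fat cell message Cidec at 12.03 against 8.08 to 8.35 on the other 3 wild-type arrays and 7.62 to 10.02 on the L10a arrays. Its part in the results was not tested beyond leaving it out. Counts of list members that move by more than 1.5 times without this array are given with that value.

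After IRI the pull-downs from L10a and wild-type kidneys differed in 44.7% of all genes tested, by limma with adjusted p under 0.05. The 4907 genes higher in L10a arrays made up 25.7% of all genes and the 3625 lower ones 19.0%. At least 2-fold higher were 1459 genes and at least 2-fold lower 1037 genes. The median difference over all genes was -0.01 on the log2 scale, and for 41.1% of all genes the 4 L10a and 4 wild-type arrays did not overlap. Markers of podocytes, of principal cells and of collecting duct regulators stood mostly above zero and those of proximal tubule below it, as the plot of cell type markers shows. The lists and their members were chosen with earlier results of these data known, so counts over them are descriptive and no independent test.

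**Figure D1:**
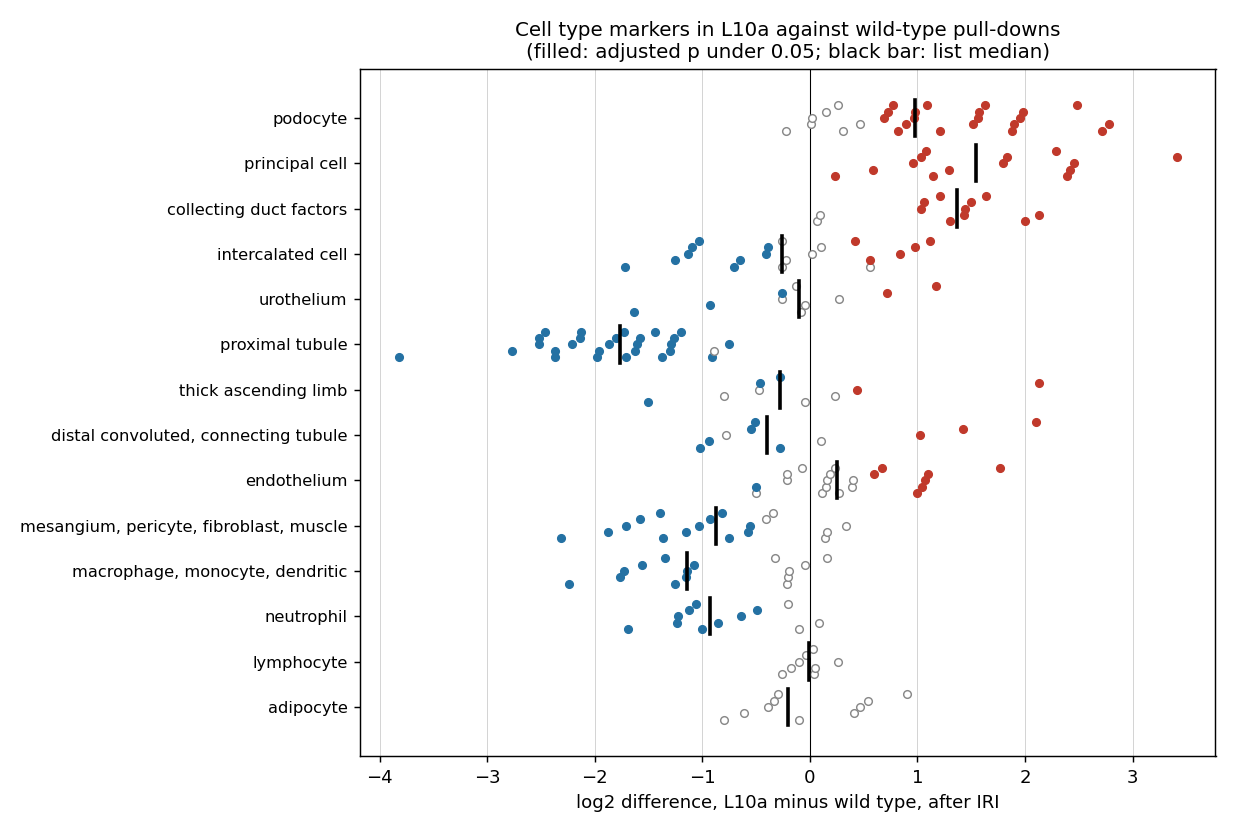
Each point is 1 marker gene, placed by its log2 difference between L10a and wild-type pull-downs after IRI, with 1 row per cell type list, filled points for adjusted p under 0.05 and a black bar for the list median. The proximal tubule row lies wholly left of 0, with a median of -1.76, and the principal cell row wholly right of it, with a median of 1.54.

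Of the 27 podocyte genes tested, 20 were higher in L10a arrays and 0 lower, with a median difference of 0.98. Their summed intensity (log2) was 14.93 to 15.27 on L10a arrays and 13.92 to 14.07 on wild-type arrays. Some genes of the list, Magi2 among them, were not analysed here. The 3 largest differences of the list were those of Wt1, Foxd1 and Cdkn1c. Wt1, a zinc finger factor that podocytes need throughout life, measured 11.26, 10.80, 11.34 and 11.11 on the L10a arrays, against 8.42, 8.84, 8.04 and 8.08 on the wild-type arrays. Its lowest L10a array thus lay above its highest wild-type array by a wide margin, a difference of 2.78 ± 0.17 (SE, adjusted p = 2.1e-07). Foxd1, a forkhead factor of podocytes and of the stroma of the developing kidney, measured 9.94, 9.35, 9.77 and 9.54 in L10a against 6.64, 7.42, 6.94 and 6.73 in wild type. Cdkn1c, the cell cycle inhibitor of mature podocytes, measured 11.50, 11.05, 11.52 and 11.25 against 8.91, 9.14, 8.81 and 8.54. Neither gene's groups overlapped, and the differences were 2.72 ± 0.17 and 2.48 ± 0.15. Among the other factors of the list, Foxc2 was higher by 1.95 ± 0.19, Tcf21 by 1.88 ± 0.19, Dach1 by 1.57 ± 0.14 and Lmx1b, the LIM homeodomain factor of podocytes, by 0.98 ± 0.12.
The 250 bases upstream of the start of Foxd1 and of Nphs1 are shown because these had the largest differences among podocyte genes with a promoter in the RefSeq table (GRCm38.p6). Foxd1 lies at chr13:98353995-98354244 on the plus strand and Nphs1 at chr7:30459808-30460057 on the plus strand.
Foxd1: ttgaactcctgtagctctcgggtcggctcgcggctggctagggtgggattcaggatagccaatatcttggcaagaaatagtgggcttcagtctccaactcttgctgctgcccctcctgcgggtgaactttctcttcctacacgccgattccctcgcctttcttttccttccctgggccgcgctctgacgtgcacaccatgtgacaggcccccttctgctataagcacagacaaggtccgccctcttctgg
Nphs1: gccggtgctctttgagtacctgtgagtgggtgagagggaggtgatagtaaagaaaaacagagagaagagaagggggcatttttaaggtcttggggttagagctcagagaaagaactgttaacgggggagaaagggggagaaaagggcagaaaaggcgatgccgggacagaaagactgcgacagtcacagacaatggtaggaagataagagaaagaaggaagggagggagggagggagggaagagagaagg

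Differences of slit diaphragm and foot process genes all lay below those of Wt1, Foxd1 and Cdkn1c, and several lay below that of Lmx1b. Nphs1, which encodes nephrin, the backbone of the slit diaphragm, measured 9.82, 9.49, 10.20 and 10.03 in L10a against 7.29, 8.76, 8.13 and 7.44 in wild type. All L10a arrays lay above all wild-type arrays, although the wild-type arrays spread over more than 1 log2 unit (difference 1.98 ± 0.30, adjusted p = 1.7e-04). A second Nphs1 probe set, at a mean of 6.38 over the 12 arrays, showed a difference of -0.03. Ptpro, a receptor phosphatase on foot processes, was higher by 1.56 ± 0.30, and Plce1, a phospholipase whose loss causes nephrotic disease, by 1.52 ± 0.20. Rhpn1, a protein of foot processes, was higher by 1.90 ± 0.34 and Ddn, a slit diaphragm adaptor, by 1.63 ± 0.31. Podxl, the sialomucin that keeps foot processes apart, measured 12.22, 12.11, 12.45 and 12.30 in L10a against 10.83, 11.30, 11.50 and 11.08 in wild type. That is 1.09 ± 0.15 with no overlap. Clic5 (0.89 ± 0.11), the semaphorin gene Sema3g (0.97 ± 0.22) and Cd2ap, which ties nephrin to the cytoskeleton (0.73 ± 0.14), were also higher. The 7 podocyte genes that did not pass included the actin organizer Synpo at 0.26 ± 0.12, the slit diaphragm protein Kirrel at 0.47 ± 0.20, the filament gene Nes at 0.01 ± 0.16 and the collagen IV genes of the glomerular basement membrane, Col4a3, Col4a4 and Col4a5, at 0.31, -0.22 and 0.02. Kirrel passed without wild-type replicate 1 (0.69, adjusted p = 0.0011) and so did Col4a4, in the lower direction (-0.35, adjusted p = 0.0074). Npnt, another matrix protein laid down by podocytes, was higher by 1.21 ± 0.13.

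All 14 principal cell genes were higher in L10a arrays after IRI, with a median difference of 1.54. Fxyd4, the regulator of the sodium pump in the collecting duct, showed the largest difference of the list. It measured 11.39, 11.23, 11.28 and 11.24 in L10a against 7.76, 7.69, 8.51 and 7.54 in wild type, a difference of 3.41 ± 0.18 (10.6-fold, adjusted p = 6.6e-08). The gap between the groups was several times the spread within either. Among water channels, Aqp2 of the apical membrane measured 11.99, 11.53, 11.74 and 11.63 in L10a against 9.18, 9.92, 9.47 and 9.14 in wild type. The basolateral channel genes Aqp3 and Aqp4 were higher by 1.80 ± 0.28 and 2.46 ± 0.16, against 2.29 ± 0.16 for Aqp2, and none of the 3 showed overlap. Avpr2, the vasopressin receptor that controls Aqp2, measured 7.80, 7.44, 7.61 and 7.61 in L10a against 6.31, 6.61, 6.89 and 6.51 in wild type. It was among the lower differences of the list, at 1.03 ± 0.12. The sodium channel subunits Scnn1a, Scnn1b and Scnn1g were higher by 0.59, 0.96 and 1.29. In the aldosterone pathway Hsd11b2, the enzyme that keeps glucocorticoids off the receptor, was higher by 2.39 ± 0.35. The receptor gene Nr3c2 was higher by 1.08 ± 0.11 and its target Sgk1 by 0.23 ± 0.07. Kcne1, a potassium channel subunit, was higher by 2.42 ± 0.13, and Elf5, an ETS factor of principal cells, by 1.83 ± 0.12.
The upstream 250 bases of Fxyd4 and Aqp2 are shown for the same reason, Fxyd4 from chr6:117937336-117937585 on the minus strand and Aqp2 from chr15:99578806-99579055 on the plus strand (RefSeq, GRCm38.p6).
Fxyd4: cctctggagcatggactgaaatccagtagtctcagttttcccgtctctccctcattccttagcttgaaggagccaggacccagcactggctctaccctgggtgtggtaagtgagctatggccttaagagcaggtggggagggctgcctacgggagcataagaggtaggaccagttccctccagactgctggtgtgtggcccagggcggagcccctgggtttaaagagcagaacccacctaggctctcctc
Aqp2: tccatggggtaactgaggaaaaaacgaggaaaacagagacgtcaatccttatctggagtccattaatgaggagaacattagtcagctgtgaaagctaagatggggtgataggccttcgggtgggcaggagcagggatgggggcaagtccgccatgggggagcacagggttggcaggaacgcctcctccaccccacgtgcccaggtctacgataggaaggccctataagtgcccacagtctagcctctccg
On either strand of these 4 windows there was no TAATTA (LIM homeodomain factors), AACCGGTT (grainyhead-like factors), TGACGTCA (cAMP response element) or TGTTTAC (forkhead factors), spelled exactly. Among 32851 mouse promoters of the same length, 4.84% held the first, 0.12% the second, 1.55% the third and 3.17% the last.

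**Figure D2:**
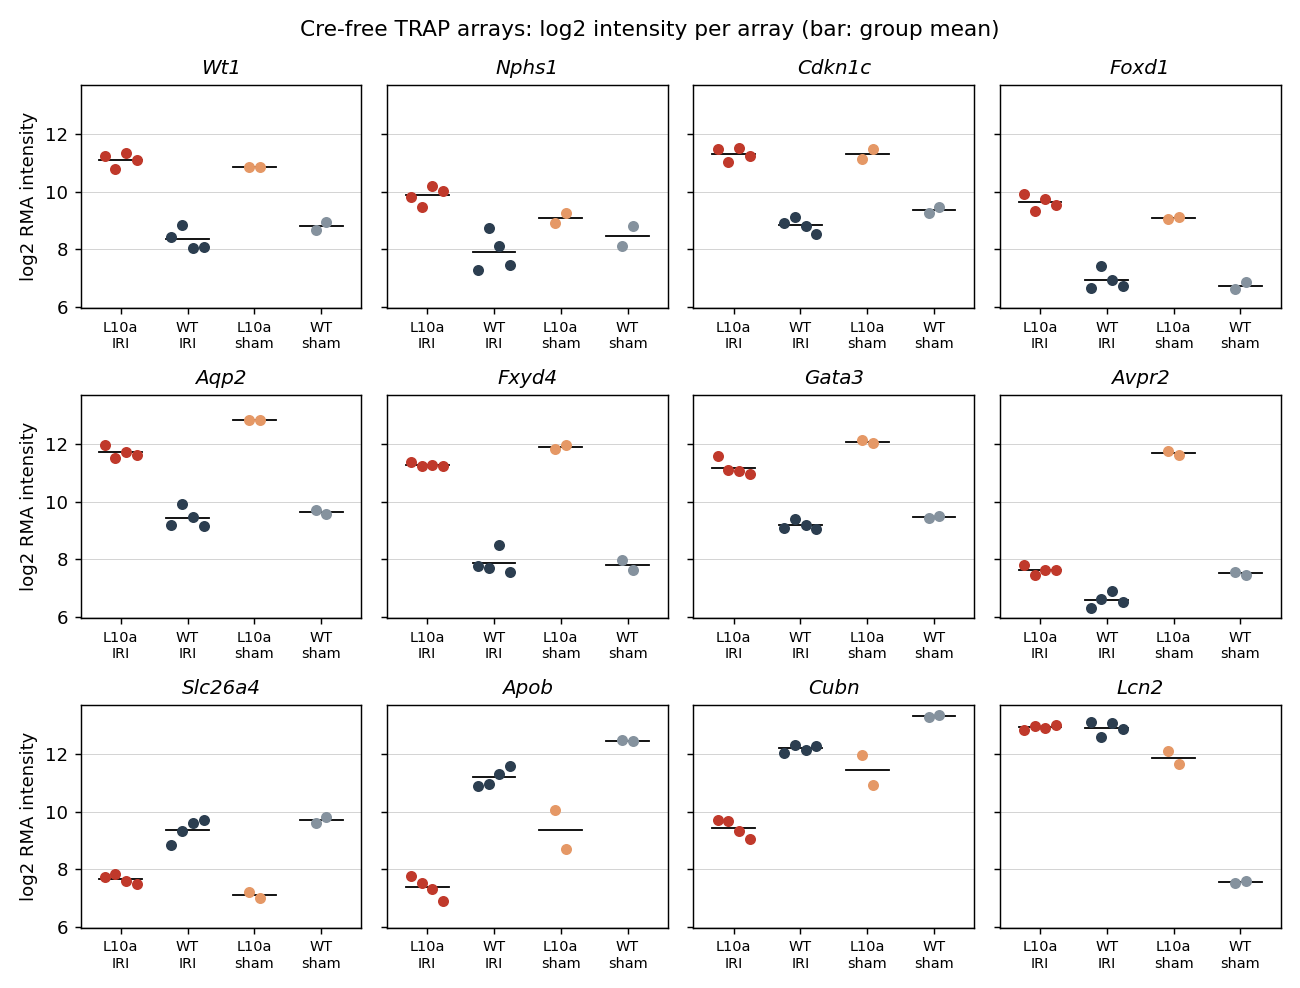
Log2 intensity of 12 genes on each of the 12 Cre-free pull-down arrays, with L10a left of wild type after IRI and again after sham surgery, 1 point per array and a bar at the group mean. Wt1, Foxd1 and Fxyd4 stood apart in both pairs of groups, Lcn2 only in the sham pair, and Apob and Cubn were lower in L10a arrays in both.

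Regulators of the collecting duct went the same way, with 10 of 12 higher, 0 lower and a median of 1.36. The zinc finger factor Gata2 measured 11.13, 11.02, 11.08 and 10.94 in L10a against 8.79, 9.07, 8.97 and 8.83 in wild type. Gata3, needed for the duct to form, measured 11.58, 11.11, 11.08 and 10.97 against 9.09, 9.41, 9.18 and 9.04. Both were about 2 log2 units higher with tight groups (2.13 ± 0.08 and 2.00 ± 0.13). The epithelial ETS factor genes Ehf and Elf3 were higher by 1.64 ± 0.13 and 1.50 ± 0.08, the homeobox genes Emx2, Hoxd10 and Hoxb7 by 1.44, 1.43 and 1.30, and the signal Wnt7b by 1.21 ± 0.13. Grhl2, a grainyhead-like factor of epithelial barriers, was higher by 1.03 ± 0.18 and Pax2, which the duct keeps from its development, by 1.06 ± 0.08. The genes that did not pass were Tfcp2l1 (0.09 ± 0.09), a factor found in principal and intercalated cells, and Wnt9b (0.07 ± 0.24).

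Intercalated cells, the acid and base secreting neighbours of principal cells, did not move as 1 group. Of their 20 genes 5 were higher, where 25.7% of all genes were, and 9 were lower, where 19.0% of all genes were. The other 6 did not pass, and the median was -0.26. Without L10a replicate 1, or without L10a replicate 4, 3 were higher. Slc26a4, the chloride and bicarbonate exchanger pendrin of the base secreting type, measured 7.73, 7.83, 7.57 and 7.48 in L10a against 8.83, 9.31, 9.61 and 9.71 in wild type. In it the L10a group was the lower one without overlap (-1.72 ± 0.17, adjusted p = 6.3e-06). Slc4a9, a basolateral exchanger of the same type, was lower by 1.03 on the log2 scale and Atp6v0a4, a proton pump subunit, fell by 1.10. The anion exchanger Slc4a1 of the acid secreting type was lower too (-1.13 ± 0.35). Its wild-type replicate 2 stood at 9.46 after IRI, against 7.49 to 7.68 on the others of that group. Also lower were Insrr (-0.65 ± 0.15), a receptor that senses alkali, and Foxi1 (-0.71 ± 0.11), the factor that directs intercalated fate. Other genes of the list went up. The proton pump subunit gene Atp6v1g3 measured 9.23, 9.81, 9.73 and 9.71 in L10a against 8.57, 8.27, 8.31 and 8.86 in wild type. Higher as well were Slc26a7 (0.84 ± 0.11) and Car2 (0.56 ± 0.08), the carbonic anhydrase that principal cells share. Calls that ended when 1 array was left out were those of Aqp6 (any of L10a replicates 2 to 4, adjusted p up to 0.07), Atp6v0d2 (L10a replicates 1, 2 and 4 or wild-type 1 and 4, up to 0.098), Rhbg (replicates 1 and 4 of either group, up to 0.088) and Dmrt2 (L10a replicates 1, 2 and 4, wild-type 2 and 3 or either L10a sham array, up to 0.1). Kit, Rhcg and Atp6v1b1 did not pass, at -0.26, 0.56 and -0.26. For Rhcg wild-type replicate 2 stood at 9.61 after IRI, against 7.98 to 8.23 on the others of that group.

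Other tubule segments were mixed or lower, beside 25.7% of all genes higher and 19.0% lower. Of 9 thick ascending limb genes, 2 were higher and 3 lower, and 5 were lower in the fits of all 57 arrays and of the 51 pull-down arrays. The tight junction gene Cldn16, for magnesium uptake, measured 10.30, 10.14, 9.89 and 10.23 in L10a against 8.11, 8.08, 8.09 and 7.77 in wild type, whereas its relative Cldn10 was lower by 1.51 ± 0.22. Slc12a1, the salt transporter that defines this segment, did not pass (-0.80 ± 0.38). Its wild-type replicate 2 stood at 11.98 after IRI, against 10.01 to 10.14 on the others of that group. Of 10 distal convoluted and connecting tubule genes, 3 were higher and 5 lower. The calcium carrier S100g measured 12.66, 12.58, 12.70 and 12.88 in L10a against 10.63, 10.97, 10.81 and 10.02 in wild type, and Pvalb was higher by 1.42 ± 0.18. The phosphate hormone receptor Kl fell by 1.02 ± 0.18. The urothelium list had 2 of 10 higher and 3 lower, among them Krt5, a basal cell keratin (-1.64 ± 0.26). Only 1 was lower after quantile normalization, in the fit of the 8 arrays after IRI, and without any 1 of L10a replicates 1, 3 and 4 and wild-type replicate 2.

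Proximal tubule messages were lower almost without exception. Of 28 genes tested, 27 were lower and 0 higher, with a median of -1.76. For 25 of the 28 the groups did not overlap, as for 41.1% of all genes. Apob, the apolipoprotein of secreted lipid particles, measured 7.77, 7.53, 7.29 and 6.89 in L10a against 10.90, 10.97, 11.30 and 11.59 in wild type (-3.82 ± 0.27, 14.1-fold lower, adjusted p = 5.6e-07). Cubn, the protein uptake receptor of the brush border, measured 9.70, 9.68, 9.32 and 9.03 against 12.04, 12.33, 12.16 and 12.29. In both, every L10a array lay more than 2 log2 units under every wild-type array. The glucose transporter Slc2a2 and the glucose releasing enzyme G6pc were each lower by 2.52. Cyp7b1 did not pass (-0.89 ± 0.63), with wild-type values of 7.72, 11.18, 8.54 and 7.90 that 1 array set apart. Fatty acid oxidation, the main fuel route of this segment, had 13 of 18 genes lower and 0 higher, with the lipid sensor Ppara at -1.79 ± 0.20 and Cpt2, which feeds fatty acids into mitochondria, at -1.33 ± 0.15.

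Outside the epithelium the lists were mostly lower in L10a arrays, except for endothelium, beside 25.7% of all genes higher and 19.0% lower. Of 20 endothelial genes 7 were higher and 1 lower, with a median of 0.25. Without wild-type replicate 1, 11 were higher and 2 lower, with a median of 0.54. Without wild-type replicate 2, 7 were higher and 5 lower, with a median of 0.15, and 2 were lower without wild-type replicate 3. The junction gene Cldn5 was higher by 1.77 ± 0.32, the factor Sox18 by 1.10 ± 0.15, Egfl7 by 1.07 ± 0.08 and the fenestral protein gene Plvap by 1.04 ± 0.08, whereas the defining cadherin Cdh5 did not pass (0.19 ± 0.10). Of 18 genes of mesangium, pericytes, fibroblasts and smooth muscle, 13 were lower and 0 higher (median -0.87). Pdgfra, a growth factor receptor of fibroblasts, measured 8.35, 8.52, 8.68 and 8.53 in L10a against 11.46, 10.11, 10.73 and 11.02 in wild type, and Pdgfrb, its counterpart on pericytes and mesangium, was lower by 1.88 ± 0.20. The summed intensity of this list ran from 12.88 to 13.23 (log2) on the L10a arrays and from 13.61 to 14.85 on the wild-type arrays, without overlap. Macrophage, monocyte and dendritic cell genes were lower in 9 of 15 (median -1.14) and neutrophil genes in 9 of 12 (median -0.92), and 0 were higher in either list. Lyz2, the lysozyme of myeloid cells, measured 6.61, 6.53, 6.32 and 6.58 in L10a against 8.45, 8.35, 8.33 and 8.00 in wild type. Itgam and the complement gene C1qb followed at -2.24 ± 0.39 and -1.56 ± 0.15. None of 8 lymphocyte and 10 adipocyte genes passed by limma in either direction, and 0 had an unadjusted p under 0.05, beside 9623 of all 19067 genes. Without wild-type replicate 1, 1 lymphocyte gene was lower, and 1 adipocyte and 1 gene of the mesangium and fibroblast list were higher. Alas2, a heme enzyme of red cell precursors and the only erythroid gene tested, was lower by 1.70.

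Among all genes, most of the largest differences lay outside the cell type lists. Highest were Sprr2g, an epidermal barrier gene, with 12.14, 11.90, 12.03 and 11.97 in L10a against 7.44, 6.75, 8.50 and 7.24 in wild type (23-fold), and Grp, which encodes gastrin-releasing peptide, with 11.23, 11.09, 11.28 and 11.20 against 7.11, 6.62, 7.92 and 7.76 (14.4-fold). In both genes the L10a arrays were tightly grouped and the wild-type arrays spread over more than 1 log2 unit. The interferon-inducible gene Ifi44l (3.81 ± 0.10), Sprr2f (3.47 ± 0.56), the kallikrein Klk1b22 (3.46 ± 0.16), the mucin Muc20 (3.18 ± 0.09) and the stress-induced regulator Nupr1 (3.13 ± 0.10) came next, with Fxyd4 between them. Further down were Ndn, Tspan1, Rab3b, Zfp385b, Nebl, Slc14a2 and Myl7, at 3.10 to 2.93. Slc14a2 is the urea transporter of the inner medullary collecting duct. A second and far dimmer Nebl probe set differed by -0.03.

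The lowest gene was the small nucleolar RNA Snord73b, at 5.17, 5.58, 4.80 and 4.85 in L10a against 8.99, 7.55, 10.54 and 9.88 in wild type (-4.14 ± 0.50). After it and Apob came Ugt2b38, a glucuronidating enzyme, at -3.75 ± 0.29. Of the 15 lowest, most are known from proximal tubule or liver: the transporters Slc6a18, Slc13a1 and Abcc2, the uptake receptor Cubn, the enzymes Aadac, Cyp4a12b and Cpn1, and the protease inhibitor Pzp, between -2.68 and -2.99. Others are known from myeloid cells. Mpeg1, the pore protein of macrophages, measured 6.07, 6.06, 5.69 and 5.80 in L10a against 8.80, 8.43, 8.99 and 8.61 in wild type, and Aoah, a lipid-degrading enzyme of phagocytes, differed by -2.80 ± 0.24. Slc7a11, the cystine importer of the oxidative stress response, was at 5.84, 5.92, 5.96 and 6.31 in L10a against 8.14, 7.93, 9.96 and 9.78 in wild type, and Slc18a1, a vesicular monoamine transporter, was lower by 2.93 ± 0.22.

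The sham arrays repeated the contrast without ischemia. In them 48.7% of all genes differed by limma, 27.6% higher and 21.1% lower in L10a arrays. Of the 8532 genes called after IRI, 6394 were called in the same direction after sham, which is 74.9% of the calls after IRI and 68.8% of those after sham. Another 170 were called in the opposite direction. All 14 principal cell genes and all 12 collecting duct regulators were higher in sham arrays as well, with medians of 2.51 and 2.01, and 27 of 28 proximal tubule genes were lower (median -1.67). Fxyd4 measured 11.84 and 11.97 in L10a sham against 7.97 and 7.63 in wild-type sham. Wt1 measured 10.86 and 10.88 against 8.69 and 8.94, and Foxd1 9.07 and 9.12 against 6.61 and 6.86. Of 27 podocyte genes 13 were higher and 5 lower after sham (3 lower without wild-type sham replicate 2). Nphs1 did not pass there (8.92 and 9.26 in L10a, 8.13 and 8.81 in wild type, difference 0.62 ± 0.42). The largest sham differences were Npy6r, a neuropeptide Y receptor gene (4.55 ± 0.28), Lcn2, Avpr2, Fxyd4, Tpd52l1 and S100a6 upward, and Cyp4a14, Ugt2b38, Slc7a12, Kynu, Col14a1 and Svep1 downward, the last at -3.64 ± 0.53. The call of Cyp4a14 ended without L10a sham replicate 2 (adjusted p = 0.066).

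**Figure D3:**
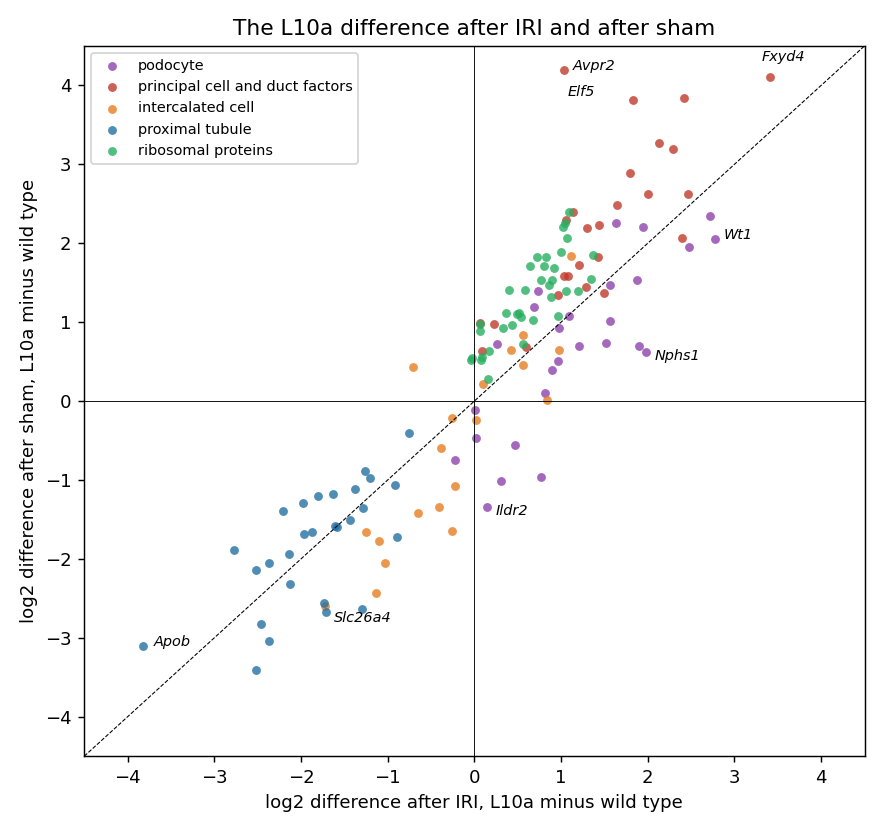
Each point is 1 gene of 5 lists, placed by its L10a minus wild-type log2 difference after IRI (horizontal axis) and after sham (vertical axis), with a dashed line where both are equal. Principal cell genes and duct factors lie mostly above the line, with Avpr2 at 1.03 after IRI and 4.19 after sham, and Nphs1 and Ildr2 lie below it.

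The difference itself changed with ischemia for 21.2% of all genes, by the limma contrast of the IRI difference minus the sham difference. It was higher after IRI for 1350 genes (7.08%) and lower for 2692 (14.1%). These counts rest on 2 sham arrays a group: without L10a sham replicate 2 there were 2644 calls, 771 of them higher, and without wild-type sham replicate 2 there were 2449, with 674 higher and 1775 lower. The number higher was 824 without wild-type sham replicate 1 and 2118 without wild-type IRI replicate 1. In the collecting duct it was called lower for 6 of 14 principal cell genes and 6 of 12 duct regulators and higher for 0, by limma, and at an unadjusted p under 0.05 for 9 and 8 and again 0. Of all 19067 genes, 6164 had an unadjusted p under 0.05 by this contrast, in either direction. Without wild-type sham replicate 1 the duct regulators called lower were 2, Gata2 and Pax2, and without L10a sham replicate 2 there were 3. Avpr2 measured 11.78 and 11.62 in L10a sham arrays against 7.57 and 7.46 in wild-type sham arrays, and its difference after sham was 4.19 ± 0.17, with a contrast of -3.16 ± 0.21 (adjusted p = 1.2e-05). Elf5 (-1.98 ± 0.20), Kcne1 (-1.42 ± 0.23), Pax2 (-1.23 ± 0.13), Gata2 (-1.14 ± 0.13), Hoxb7 (-0.89 ± 0.21) and Sgk1 (-0.75 ± 0.11) went the same way, although Hoxb7 lost its call without wild-type sham replicate 1 (adjusted p = 0.056). Fxyd4, Gata3, Aqp3 and Aqp4 did not pass this test (-0.70, -0.62, -1.09 and -0.17).

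For podocyte genes the same contrast was higher for 4 of 27 genes and lower for 0, beside 7.08% and 14.1% of all genes. Without wild-type replicate 1 it was higher for 7, and without wild-type replicate 2 higher for 9 and lower for 1. The fits of all 57 arrays and of the 51 pull-down arrays gave 8 and 11 higher, and array weights 14. The axon guidance receptor gene Robo2 measured 8.69, 7.89, 8.79 and 8.34 in L10a against 7.80, 7.79, 7.58 and 7.45 in wild type after IRI, and 8.52 and 8.67 against 9.41 and 9.69 after sham. It was thus higher in L10a arrays after IRI and lower after sham (contrast 1.73 ± 0.30, adjusted p = 0.0021), although its sham call ended without wild-type sham replicate 2 (adjusted p = 0.061). Ildr2 (1.49 ± 0.27) and Col4a3 (1.33 ± 0.30) were lower in L10a sham arrays and did not pass after IRI. Thsd7a, an antigen of membranous nephropathy, was called by this contrast (0.72 ± 0.22) but not without any 1 of 7 arrays, which were L10a replicates 1 and 3, wild-type 3 and 4, both L10a sham arrays and wild-type sham replicate 2 (adjusted p up to 0.17). Wt1, Foxd1 and Nphs1 did not pass (0.72, 0.37 and 1.36). For 28 proximal tubule genes there were 0 calls by limma, with 1 higher and 1 lower at an unadjusted p under 0.05. Without L10a sham replicate 2, 4 were called lower, and without wild-type replicate 2, 3 were called higher. For podocyte genes these unadjusted counts were 12 higher and 2 lower, beside 6164 of all 19067 genes in either direction.

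Several of the largest contrasts lay in genes known from injury and stress. Lcn2, the iron-binding marker of tubular injury, measured 12.83, 12.99, 12.91 and 13.01 in L10a against 13.13, 12.60, 13.07 and 12.86 in wild type after IRI, and 12.10 and 11.64 against 7.51 and 7.59 after sham. The groups overlapped after IRI and lay over 4 log2 units apart after sham (contrast -4.30 ± 0.22, adjusted p = 5.1e-06). The immediate early gene Nr4a1 showed the same pattern, with 11.56, 11.30, 11.28 and 11.11 against 10.48, 11.47, 11.11 and 11.00 after IRI, and 12.32 and 10.86 against 7.57 and 7.83 after sham. Rnf183 (-3.17 ± 0.17) and Anxa9 (-3.22 ± 0.23) were high in L10a sham arrays, and the contrast of Snord73b was -3.12 ± 0.87. Its call ended without any 1 of the 4 sham arrays (adjusted p up to 0.12), and that of Uroc1, below, without wild-type sham replicate 2 (adjusted p = 0.057). In the other direction stood Slc7a12 (4.09 ± 0.31), Kynu (3.69 ± 0.43), Slco4c1 (3.20 ± 0.63) and Uroc1 (2.61 ± 0.60), known from proximal tubule or liver, which were highest in wild-type sham arrays. Slc7a12 measured 8.94 and 10.03 there and at most 5.41 on any other Cre-free array. Grp was different, low in both sham groups (7.21 and 6.21 in L10a, 6.45 and 6.38 in wild type) and high in L10a after IRI (contrast 3.55 ± 0.47). Sprr2g did likewise in all but L10a sham replicate 1, at 8.79 beside 5.65 in the other L10a sham array, and its contrast (2.99 ± 0.94) lost its call without any 1 of 9 arrays, which were all but wild-type replicates 1 and 3 and L10a sham replicate 1 (adjusted p up to 0.14).

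Injury and stress lists gave mixed counts after IRI, beside 25.7% of all genes higher and 19.0% lower. Of 21 tubular injury genes 10 were higher and 6 lower in L10a arrays. Havcr1, the injury molecule shed by proximal tubules, measured 9.17, 9.99, 9.89 and 9.80 in L10a against 12.96, 10.87, 12.61 and 12.66 in wild type (-2.56 ± 0.39), and the matrix gene Tnc was lower by 2.60 ± 0.39. Of 20 immediate early and AP-1 genes 6 were higher and 5 lower (8 lower without wild-type replicate 1), with Jund at 0.86 ± 0.13 and Fosb at -2.13 ± 0.49. After sham 13 of these 20 were higher and 0 lower (1 lower without wild-type replicate 1 or 2), beside 27.6% and 21.1% of all genes. Of 12 heat shock genes 2 were higher and 6 lower, and 9 were lower without wild-type replicate 1. The chaperones Hsph1 and Hspa1a fell by 1.64 and 1.41. Interferon response genes were higher in 5 of 13 and lower in 0 (1 without L10a replicate 3), with Ifit3 at 1.48 ± 0.20 and Irf1 at 1.23 ± 0.16, although a second and dimmer Irf1 probe set differed by -0.19. Of 20 cytokine, chemokine and NF-kB genes 3 were higher and 2 lower (8 lower without wild-type replicate 1). With array weights 5 were higher and 7 lower, and 4 were lower in the fits of all 57 and of the 51 pull-down arrays, with a replicate block and relative to ribosomal protein genes. Extracellular matrix genes were lower in 9 of 17, with Fn1 at -2.18 ± 0.31, and 0 were higher (1 without wild-type replicate 1). Of 17 cell cycle genes 3 were higher and 2 lower after IRI (4 and 0 without wild-type replicate 1), and 14 were lower after sham. The number lower after IRI was 0 or 1 without any 1 of the 8 IRI arrays. Of 13 cholesterol synthesis genes 3 were higher and 5 lower after IRI.

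Messages of the ribosome itself were higher. Of all genes, 25.7% were higher and 19.0% lower after IRI, and 27.6% and 21.1% after sham. Of 37 cytosolic ribosomal protein genes 29 were higher and 0 lower after IRI (median 0.68), and 36 of 37 after sham (median 1.39). Rps28 measured 11.84, 11.84, 11.86 and 11.85 in L10a against 10.56, 10.32, 10.76 and 10.27 in wild type, a nearly constant level beside a spread one. Rplp0 did not pass (0.06 ± 0.06). Of 22 oxidative phosphorylation genes 9 were higher and 5 lower, with a median of 0.11, and the respiratory chain genes Cox5b (1.27 ± 0.08) and Ndufa4 (0.94 ± 0.10) were among the higher ones. After quantile normalization 8 were higher and 8 lower, with a median of -0.05. Ribosomal protein genes have near-identical copies in the genome that the probes may share, so single members are uncertain. If the arrays are set level on these genes, the median of all genes shifts to -0.72 after IRI and -1.62 after sham, and only 8.68% of the calls after IRI are higher in L10a arrays, against 57.5% as analysed. Relative to that shift no called difference named here changed direction. Against 0, differences smaller than the shift lie below it on that scale, such as those of Scnn1a, Sgk1 and Car2. List medians after IRI stayed above 0 there for podocyte (0.27), principal cell (0.83) and duct regulator genes (0.65). Among those that fell below 0 were the medians of endothelium (-0.46) and interferon response (-0.45).

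Rpl10a, the gene of the tagged protein, was higher in L10a arrays, with 12.90, 12.95, 12.92 and 12.93 against 12.42, 12.35, 12.40 and 12.34 in wild type after IRI (0.54 ± 0.06, adjusted p = 2.4e-05). Its 4 probe sets differed by 0.54 to 0.59. This lies below the median of the ribosomal protein genes, and the fluorescent part of the fusion was not analysed here. Of 41 genes tested within 2 Mb of the Rosa26 locus, where the allele sits, 41.5% were called, against 44.7% of all genes. Of the 41 genes, 15 were higher and 2 lower, with a median of 0.04. Thumpd3, which flanks the locus, measured 10.12, 9.99, 10.11 and 10.13 in L10a against 9.57, 8.38, 8.67 and 8.90 in wild type (1.21 ± 0.20), and its other neighbour Setd5 was higher by 0.92 ± 0.09. Brk1, an actin regulator, showed the largest difference in the window (1.62 ± 0.09), followed by Srgap3 (1.40 ± 0.14), Thumpd3 and Vhl (1.16 ± 0.08), and Rpusd3 (-0.54 ± 0.09) and Irak2 (-0.48 ± 0.09) were lower. Nnt, which C57BL/6J mice carry in a deleted form, measured 9.76, 10.02, 10.07 and 10.15 in L10a against 9.99, 10.70, 10.06 and 10.22 in wild type after IRI and did not pass. After sham it was 10.14 and 10.33 against 11.54 and 11.52 (-1.30 ± 0.20).

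Set beside pull-downs in which Cre placed the tag in a chosen cell type, the L10a arrays held the highest mean of the 6 TRAP groups after IRI for 18 of 27 podocyte genes, 13 of 14 principal cell genes and 11 of 12 duct regulators, against 14.1% of all genes. These levels were not tested, the lists were chosen with earlier results of these data known, and the mice of the Cre lines were 6 to 9.5 weeks old. Wt1 averaged 11.13 in L10a arrays, 9.49 in Foxd1-Cre, 9.12 in Lyz2-Cre, 8.76 in Six2-Cre, 8.65 in Cdh5-Cre and 8.35 in wild-type arrays. Foxd1 averaged 9.65 in L10a arrays and between 6.63 and 7.15 in the other 5 groups, the Foxd1-Cre line included, at 6.91. For both genes every L10a array lay above every array of the other 5 groups. Aqp2 averaged 11.72 in L10a arrays, then 10.28 in Lyz2-Cre and 10.14 in Cdh5-Cre, whose ranges overlap each other, and 9.43 in wild type. Gata2 was an exception, with 11.29 in Cdh5-Cre arrays and 11.04 in L10a arrays. Apob averaged 7.37 in L10a, 7.38 in Lyz2-Cre and 7.50 in Cdh5-Cre arrays, with overlapping ranges, and 11.19 in wild type. Grp averaged 11.20 in L10a and 10.00 in Lyz2-Cre arrays, and at most 7.73 in the other 4 groups.

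**Figure D4:**
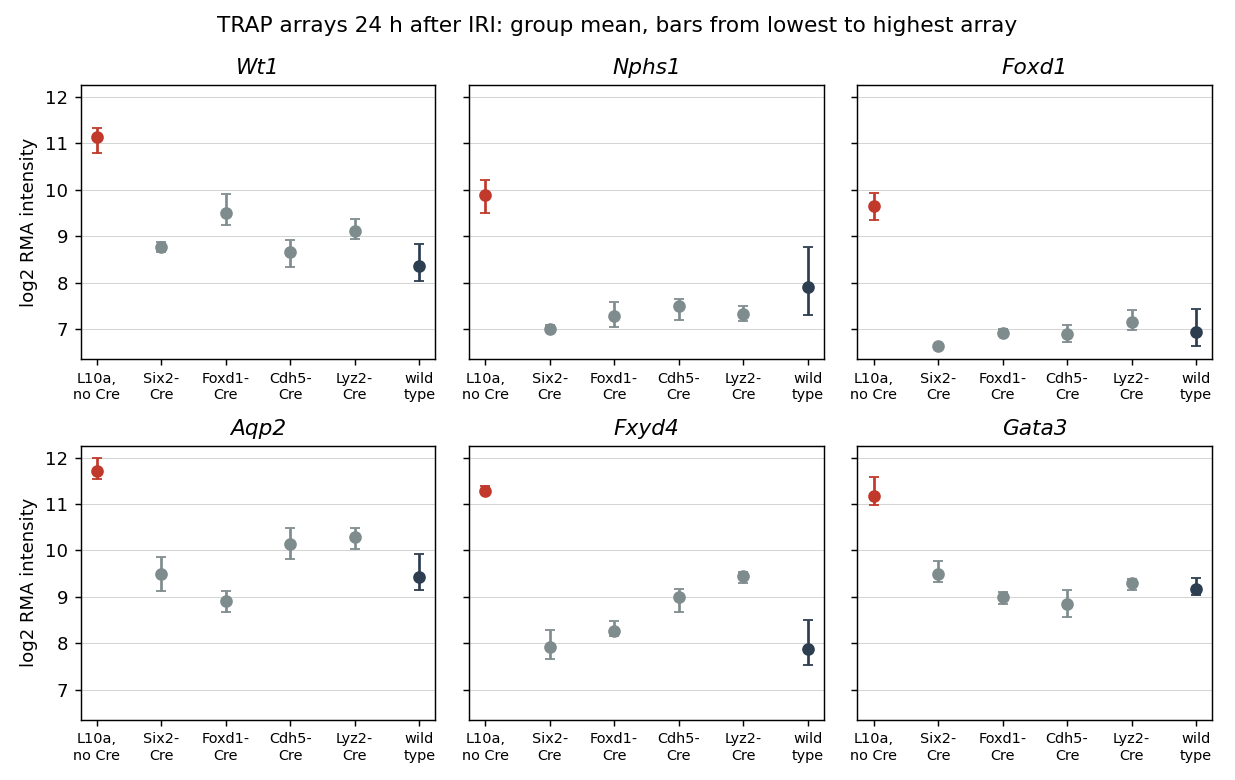
Mean log2 intensity of 6 genes in the TRAP groups 24 h after IRI, with a line from the lowest to the highest array of each group (4 arrays for L10a and wild type, 3 for each Cre line). The L10a point lies above every other group in all 6 panels, for Foxd1 at 9.65 against at most 7.15.

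The whole-kidney total RNA arrays after IRI, 3 in number, came from L10a mice, with no total RNA of wild-type mice used here. They lay on another scale, with medians of 43.9 to 53.3 against 105.8 to 128.4 for pull-downs, so only ranks within an array were compared. Over all genes the Spearman correlation of group means with this total RNA was 0.940 for the L10a pull-down and 0.967 for the wild-type pull-down (19067 genes, which are not independent), so that the wild-type pull-down was set against RNA of the other genotype. Principal cell genes had a median percentile of 91.8 among the genes of an L10a array, 70.8 in wild-type arrays and 72.7 in total RNA. Podocyte genes stood at 75.7 in L10a, 59.3 in wild type and 61.1 in total RNA, and duct regulators at 85.3, 66.5 and 65.9 in the same order of groups. In these 3 lists the wild-type pull-down ranked close to total RNA and the L10a pull-down above both. Proximal tubule genes stood at 81.4 in L10a arrays, 97.9 in wild type and 98 in total RNA. Macrophage genes ranked lower in L10a arrays (30.4) and higher in wild-type arrays (54.9) than in total RNA (46.4).

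**Figure D5:**
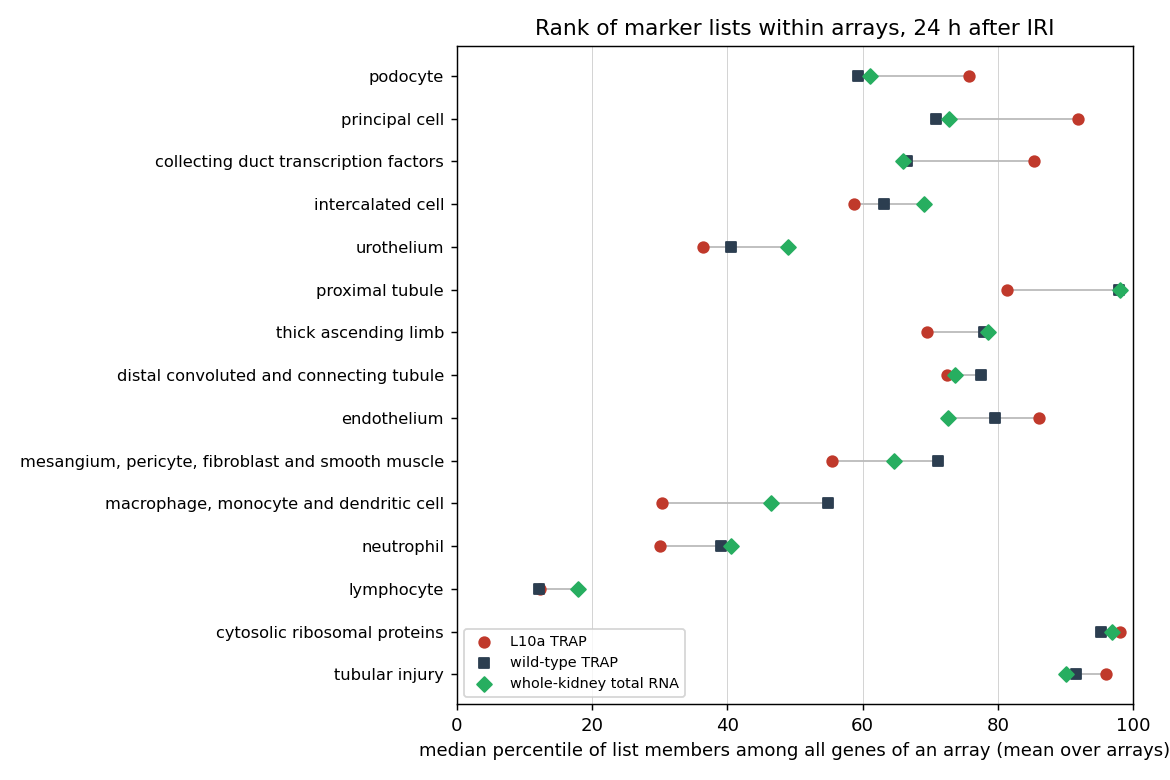
Median percentile of the genes of each list among all genes of an array, averaged over the arrays of a group, for L10a pull-downs, wild-type pull-downs and whole-kidney total RNA of L10a mice after IRI. Wild-type and total RNA points nearly coincide for podocyte, principal cell, duct regulator and proximal tubule genes, and the L10a points lie apart from both.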

How the data were processed

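RNA from anti-GFP pull-downs of mouse kidney extract was measured on Affymetrix Mouse Gene 1.0 ST arrays. The deposited values are linear intensities that the authors made by RMA with Expression Console 1.3.1, per the submitters' processing notes, and they ran from 15.3 to 17800. No genome build is given in the sources used here. Pull-down arrays had medians of 105.8 to 128.4 and total RNA arrays of 43.9 to 53.3, so the deposited scales of these kinds of sample differ. Arrays give no read depth, and their number limits the precision.

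Intensities were converted to log2. The platform annotation names exactly 1 gene for 21789 of 35556 probe sets, more than 1 for 1621 and none for 12146. The RefSeq gene table held 21698 of the 21789. For each gene the probe set with the highest mean over the 12 Cre-free pull-down arrays was kept, and the 19067 genes with log2 above 5 on at least 3 arrays were tested. limma 3.58.1 (R 4.3.3) fitted 1 coefficient for each of 4 groups with 8 residual degrees of freedom. Benjamini-Hochberg adjustment ran over all genes tested, and adjusted p under 0.05 was called. All p-values are two-sided, and errors are standard errors of log2 differences. In simulated data of this size, few genes were changed and the noise was independent between genes. There 24% of 1.25-fold, 66% of 1.5-fold, 94% of 2-fold and 100% of 4-fold changes were recovered, with 9 false calls among 151. In the data 44.7% of genes were called, so these rates do not carry over to this comparison.

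Named genes were the 15 highest and 15 lowest differences after IRI whose groups did not overlap, the 6 highest and lowest of the other contrasts, leaving out genes known only by clone names, and members of the lists. Any member of the podocyte, principal cell, duct regulator and intercalated lists could be named, up to 4 called and 2 other members of each other list, and the called neighbours of Rosa26. The members and lists were chosen with earlier results of these data known. Of 470 list entries 426 were tested. Alternatives were other sets of arrays in the fit, scalings, filters, probe set choices, eBayes settings, array weights, a replicate block and leaving out each array.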

Additional observations from a re-analysis of the deposited data

Results flagged for a closer look

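For 54 of the 156 genes named here the difference between L10a and wild-type arrays itself differed between IRI and sham by the limma contrast of both. Over all genes tested it did so for 21.2%. Some genes were named because they were extremes of this same contrast, so the count among named genes cannot be read against that share. Values are log2 contrasts, IRI difference minus sham difference.

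The contrast was lower, and kept its call without each array in turn, for Lcn2 (-4.30), Nr4a1 (-3.60), Anxa9 (-3.22), Rnf183 (-3.17), Avpr2 (-3.16), Elf5 (-1.98), Hspa1a (-1.87), Jund (-1.86), Npy6r (-1.66), Ndufa4 (-1.45), Kcne1 (-1.42), Tpd52l1 (-1.25), Pax2 (-1.23), Cox5b (-1.19), Foxi1 (-1.14), Gata2 (-1.14), Rplp0 (-0.83), Brk1 (-0.80), Rpl10a (-0.75) and Sgk1 (-0.75). It was also lower, but lost its call without at least 1 array, for Snord73b (-3.12), Slc7a11 (-2.93), Havcr1 (-2.20), Hsph1 (-1.29), Alas2 (-1.03), Aqp2 (-0.91), Hoxb7 (-0.89), Slc14a2 (-0.84), Ehf (-0.83), Srgap3 (-0.83), Emx2 (-0.79), Setd5 (-0.61) and Tfcp2l1 (-0.55).

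The contrast was higher, and kept its call without each array in turn, for Slc7a12 (4.09), Kynu (3.69), Grp (3.55), Slco4c1 (3.20), Robo2 (1.73), Col14a1 (1.69), Ildr2 (1.49), Kit (1.38), Col4a3 (1.33), Slc4a9 (1.02), Irak2 (0.87) and Plvap (0.75). It was higher, but lost its call without at least 1 array, for Sprr2g (2.99), Uroc1 (2.61), Nnt (1.06), Atp6v0d2 (0.93), Slc26a7 (0.83), Insrr (0.77), Mpeg1 (0.74), Thsd7a (0.72) and Cdh5 (0.61).

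In 24 of the 312 groups of 4 arrays after IRI that these genes give, 1 array lay farther from the others than Dixon's critical value for 4 samples allows. Chance gives this in about 1 in 20 groups, and groups of different genes share arrays. L10a replicate 1 was high for Ifit3 (11.22), Sgk1 (11.96) and Tfcp2l1 (12.17) (log2). L10a replicate 2 was high for C1qb (7.98) and Fosb (8.98) and low for Elf5 (8.34) and Thumpd3 (9.99) (log2). Wild-type replicate 1 was high for Cidec (12.03), Ndn (7.94) and Sox18 (9.52) and low for Fosb (8.70), Pzp (10.43) and Wnt9b (7.28) (log2). Wild-type replicate 2 was high for Col4a5 (6.95), Rhcg (9.61), Slc12a1 (11.98), Slc4a1 (9.46), Slc7a12 (5.41) and Slco4c1 (6.99) and low for Foxc2 (8.03) and Havcr1 (10.87) (log2). Wild-type replicate 3 was high for Npy6r (5.80) and low for Ndufa4 (10.03) (log2). Wild-type replicate 4 was low for Cldn16 (7.77) (log2).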

How the results depend on the processing

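The counts of genes called after IRI, after sham and by the contrast of both kept within 1.5 times of the reported value under other fits, filters, probe set rules and eBayes settings, with the exceptions given here. Centring on ribosomal protein genes gave 16466 calls after IRI (1429 higher, 15037 lower), 17315 after sham (814 higher, 16501 lower) and 14603 for the contrast (14253 higher, 350 lower), since it shifted the median of all genes to -0.72, -1.62 and 0.87. The share of higher calls was then 8.68%, 4.7% and 97.6%, against 57.5%, 56.7% and 33.4% as reported. Array weights gave 6131 calls for the contrast, 2468 of them higher, and the fit of the 51 pull-down arrays 2061 higher. The cause was not tested. Quantile normalization moved the share of higher calls of the contrast to 47.9% (1960 higher, 2130 lower). Leaving out 1 array gave 7772 to 9716 calls after IRI (4550 to 5289 higher, 3168 to 4427 lower), 7724 to 10310 after sham (4689 to 5586 higher, 3032 to 4724 lower) and 2449 to 5211 for the contrast (674 to 2118 higher, 1775 to 3093 lower). Leaving out 1 sham array leaves a single array in that group, assumed to vary like the others. Same-numbered L10a and wild-type arrays after IRI deviated together at r = 0.15, 0.02, 0.05 and 0.11, so the numbers were not taken to pair the samples. A replicate block gave 8574, 9365 and 3895 calls. Few arrays, above all 2 sham arrays a group, limit these results, and dim probe sets understate differences.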
